A study of Mus musculus with 12 samples.

Results

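The comparison described here set cytotoxic T lymphocytes (CTL) that had lost FOXO1 and were cultured with an inhibitor of PI3K p110δ against untreated WT CTL, so that both changes lay between the groups. Its members were the libraries whose header in the deposited table read FOXO1-GFP KO with PI3Kdi for 24 h (3 libraries) or WT (3 libraries), 6 of the 12 libraries in all, and every one of the 13283 genes of the table was tested. CTL are effector CD8 T cells. They were grown from lymph node or spleen cells of female mice of 11 to 27 weeks, which were activated for 48 h with antibodies to CD3 and CD28 and kept in 2 cytokines, IL-12 at 2 ng/mL beside IL-2 at 20 ng/mL. WT CTL came from mice with a Cre recombinase driven by the granzyme B promoter (GzmB cre+), and FOXO1-GFP KO CTL from mice with the same Cre and 2 floxed alleles of FOXO1 tagged with GFP (FOXO1-GFP fl/fl GzmB cre+). The Cre was thus shared by the groups, and the floxed tagged allele was not carried by WT. PI3Kdi is IC87114 at 10 µM for 24 h, and the WT libraries had the vehicle, DMSO. Live CD8+ cells were sorted before RNA extraction, and FOXO1-GFP KO cells were in addition gated as GFP-, a gate that WT cells did not have. The other 6 libraries, WT+PI3Kdi and FOXO1-GFP KO (3 each), were used to divide the net change between its 2 parts.

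PI3K p110δ makes a membrane lipid that activates the kinase AKT in T cells. AKT phosphorylates FOXO1, which then leaves the nucleus and stops driving its target genes. Where FOXO1 is present, inhibition of p110δ therefore lets it return to the nucleus, while deletion of Foxo1 removes it. Each alone thus acts on this branch of the pathway in the opposite direction to the other. Cells with both changes lack the FOXO1 that could return. AKT and p110δ also have other substrates and partners, which do not pass through FOXO1. In CD8 T cells FOXO1 is known for genes of homing, quiescence and memory.

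The net change of an mRNA (FOXO1-GFP KO+PI3Kdi against WT) was written as the sum of a genotype part, the mean of the difference between FOXO1-GFP KO and WT with and without PI3Kdi, and an inhibitor part, the mean of the difference between PI3Kdi and vehicle in the 2 genotypes. The sum is exact on the log2(FPKM + 0.1) scale, on which all fold changes are given, and which understates the change of an mRNA near or under 0.1 FPKM. The net change and its parts come from the same libraries and are not independent. An mRNA was called at an adjusted p under 0.05 (limma, Benjamini-Hochberg over all genes) and a change over 1.5-fold, which is 0.585 on the log2 scale. Parts that both had an adjusted p under 0.05 were called adding where they had the same sign and offsetting where they had opposite signs. These names describe the signs of averaged parts, and an inhibitor part can come mainly from 1 genotype. Because replicate numbers paired the vehicle and PI3Kdi libraries of a genotype, values with this replicate block are given beside those without it where they differ.

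The libraries held an estimated 12.8 to 47.9 M reads over the genes of the table. The defining CD8 T cell mRNA were high in both groups: Cd8a was at 153, 148 and 160.3 FPKM in the WT libraries and 179, 229 and 253 in FOXO1-GFP KO+PI3Kdi, and Gzmb, the granzyme B gene, at 9173, 9685 and 9059.7 and at 10955, 10613 and 7891. The libraries of 1 group were not alike. WT 1 and WT+PI3Kdi 1 lay at one end of the first principal component, which held 47.7% of the variance, and FOXO1-GFP KO 3 and FOXO1-GFP KO+PI3Kdi 3 at the other. Without these 4 libraries, which leaves 2 against 2, 43 of the 107 mRNA called in the net comparison were still called, and the named mRNA that were not are given in each paragraph. The labels call the replicates biological, and which mice they came from is not given in the sources used here. RNA was measured in bulk, in which fewer cells of a type and less RNA per cell cannot be told apart.

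Foxo1 (chromosome 3, 52268336 to 52353221, GRCm38) checked the labels. It was at 9.99, 5.77 and 5.79 FPKM with vehicle and 10.5, 5.84 and 7.5 with PI3Kdi in WT libraries, and 0.58, 1.08 and 1.44 with vehicle and 0.61, 1.06 and 1.75 with PI3Kdi in libraries lacking FOXO1. The groups with and without the floxed allele did not overlap. The net change was -2.61 ± 0.39 (log2, SE), 6.12-fold lower, with an adjusted p of 0.012, of which the genotype part was -2.74 and the inhibitor part 0.13. The deleted part is exon 2, and the value of the gene also counts reads of the exons that remain.

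Promoters of 4 mRNA are shown because they stand for the patterns described further on. Tcf7 was offsetting in both fits, and Egln3, Slc16a3 and P4ha1 were lower by both parts in the fit with the replicate block. Each is 250 bases before to 50 bases after the start of the gene (RefSeq, GRCm38.p6), 5′ to 3′ along the gene: Tcf7 at chr11:52282546-52282845 on the minus strand, Egln3 at chr12:54203825-54204124 on the minus strand, Slc16a3 at chr11:120948817-120949116 on the plus strand and P4ha1 at chr10:59323046-59323345 on the plus strand. Capitals mark GTAAACA, the core that FOXO factors bind, in Tcf7, and ACGTG, the core that hypoxia-inducible factors bind, or its reverse complement in the others.

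Tcf7: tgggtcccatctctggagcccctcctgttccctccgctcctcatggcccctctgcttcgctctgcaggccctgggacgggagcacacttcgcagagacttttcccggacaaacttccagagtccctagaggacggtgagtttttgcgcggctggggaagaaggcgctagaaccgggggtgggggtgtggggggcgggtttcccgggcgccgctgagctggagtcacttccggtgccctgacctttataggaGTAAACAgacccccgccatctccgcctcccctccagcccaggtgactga
Egln3: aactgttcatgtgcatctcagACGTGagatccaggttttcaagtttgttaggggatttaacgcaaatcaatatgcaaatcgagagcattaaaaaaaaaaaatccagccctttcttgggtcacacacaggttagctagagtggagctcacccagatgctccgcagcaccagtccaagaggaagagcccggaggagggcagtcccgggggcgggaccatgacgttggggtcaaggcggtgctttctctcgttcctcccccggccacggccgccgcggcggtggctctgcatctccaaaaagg
Slc16a3: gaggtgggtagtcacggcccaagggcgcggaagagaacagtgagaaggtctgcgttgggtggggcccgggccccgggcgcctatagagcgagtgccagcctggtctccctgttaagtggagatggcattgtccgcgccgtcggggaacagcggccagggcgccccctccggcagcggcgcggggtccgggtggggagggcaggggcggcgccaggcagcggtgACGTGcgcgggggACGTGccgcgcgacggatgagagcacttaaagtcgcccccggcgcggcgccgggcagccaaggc
P4ha1: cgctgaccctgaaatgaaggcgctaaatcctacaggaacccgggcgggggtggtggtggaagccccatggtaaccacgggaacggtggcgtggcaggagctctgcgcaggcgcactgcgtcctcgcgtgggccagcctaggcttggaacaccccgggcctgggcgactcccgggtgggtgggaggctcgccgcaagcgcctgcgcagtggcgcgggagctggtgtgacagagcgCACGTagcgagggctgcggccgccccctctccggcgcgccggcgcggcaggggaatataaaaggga

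Searched on both strands, GTAAACA stood in a promoter of 4.05% of all genes with one in RefSeq and of 3.05% of those in the table. Of the 18 offsetting mRNA with the inhibitor part higher that had a promoter there, 1 held it, Tcf7, and with the replicate block 3 of 30 did (Il1rl1, Selenop and Tcf7). ACGTG stood in a promoter of 29.6% of the genes of the table, and in 7 of the 10 mRNA that were lower by both parts with the replicate block (Ak4, Bnip3, Egln1, Egln3, P4ha1, Plcxd1 and Slc16a3). Cxcr3, Pfkl and Tpi1 had no match in this window. Of 17 hypoxia-inducible genes with a promoter 14 held it, among them Car9 and Ankrd37, whose net changes were 0.04 and -0.05. GTAAACA also stood in 5 of the 28 mRNA called higher that had a promoter (Fcgrt, Frat1, Frat2, P2ry14 and Rabggtb). The motif ACGTG and its 3 example promoters were picked after the values were seen, and a match is a description of letters, not of a bound site.

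Over all genes, 107 mRNA (0.806% of 13283) differed between FOXO1-GFP KO+PI3Kdi and WT, 44 higher (0.331%) and 63 lower (0.474%). The genotype part called 335 mRNA (2.52%), 91 higher (0.685%) and 244 lower (1.84%), and the inhibitor part called 62 (0.467%), 52 higher (0.391%) and 10 lower (0.0753%). Libraries with both changes did not overlap with WT for 17.2% of all genes, lying above in 6.83% and under in 10.4%. The replicate block changed the number of calls for each part but left the estimates as they were. Without it, the vehicle and PI3Kdi libraries of a number count as independent replicates of a genotype, although their deviations correlated at 0.594 to 0.838. Its adjusted p are therefore too lenient for the genotype part and too strict for the inhibitor part. The adding and offsetting classes without the block rest on both. It called 104 mRNA in the net comparison (0.783%), 39 higher (0.294%) and 65 lower (0.489%), with 76 called in both fits. It called 89 (0.67%) for the genotype part, 22 higher (0.166%) and 67 lower (0.504%), and 282 (2.12%) for the inhibitor part, 187 higher (1.41%) and 95 lower (0.715%). For the difference of the PI3Kdi responses between genotypes it called 3 mRNA (0.0226%), 1 higher (0.00753%) and 2 lower (0.0151%), against 0 without the block (200 at an unadjusted p under 0.05). Of the 44 mRNA that were higher, the genotype part alone passed an adjusted p of 0.05 in 28, the inhibitor part alone in 8, both in 2 and neither in 6. Of the 63 that were lower, these numbers were 57, 1, 1 and 4. With the block the inhibitor part alone passed in 23 of the 39 higher and 28 of the 65 lower mRNA, and the genotype part alone in 11 and 18. The genotype part was the larger in 29 of the 44 higher and 60 of the 63 lower mRNA, and the parts had the same sign in 35 and 48 of them. Among the calls with the block the genotype part was the larger in 24 of the 39 higher and 62 of the 65 lower mRNA. In the plot of the 2 parts, adding mRNA lie in the upper right and lower left, offsetting ones in the upper left and lower right, and the dashed line marks parts that sum to 0.

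**Figure D1:**
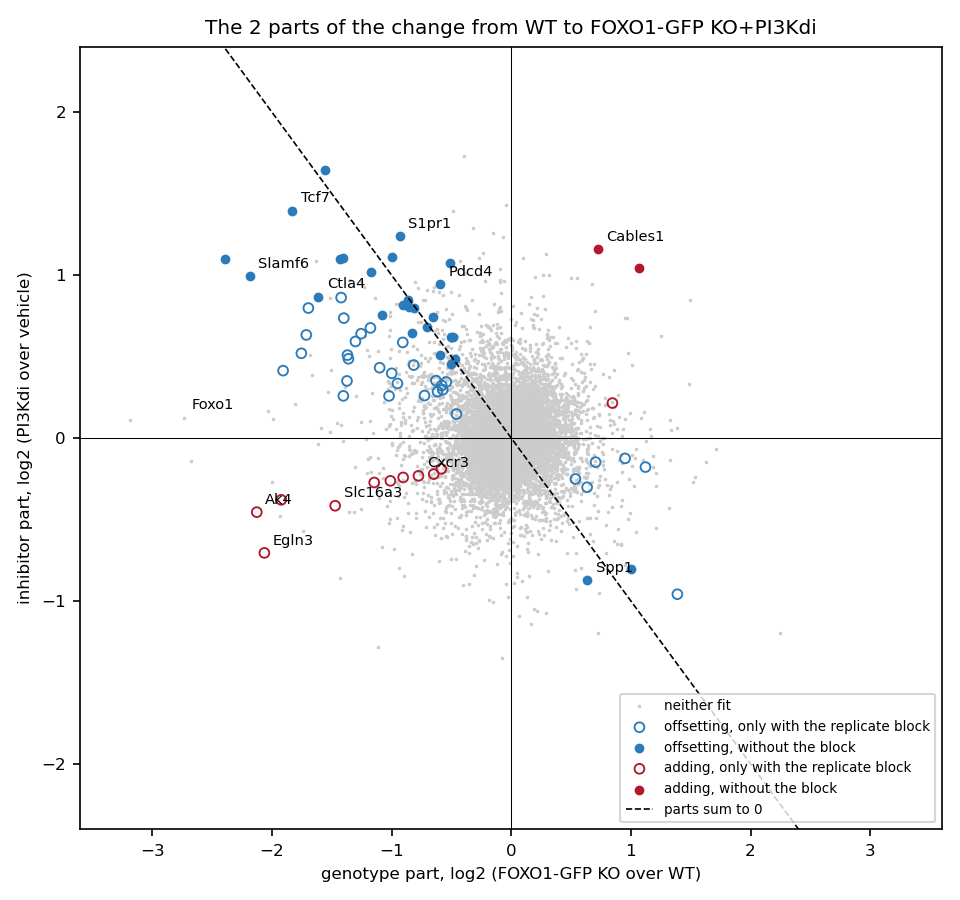
Genotype part (x axis, log2) against inhibitor part (y axis, log2) for each of 13283 genes, with offsetting mRNA in blue and adding mRNA in red, filled where called without the replicate block and open where called only with it. Filled blue points gather in the upper left, where the genotype part was lower and the inhibitor part higher, and the open red points in the lower left are mRNA lower by both parts; Gm38098, a predicted gene with a genotype part of 6.22, lies outside the axes.

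Among the mRNA that rose, Cables1, whose protein binds cyclin-dependent kinases, had the largest change of the rule for named genes. It was at 1.6, 1.5 and 1.29 FPKM in WT against 5.76, 5.14 and 6.14 with both changes, 2.3, 3.28 and 2.98 with PI3Kdi alone and 2.67, 1.57 and 2.09 with the deletion alone. Every library with both changes was above every other library. The net change was 1.89 ± 0.20 (3.7-fold higher, adjusted p 0.0024), made of a genotype part of 0.73 (adjusted p 0.015) and an inhibitor part of 1.16 (0.0062). It was 1 of 2 adding mRNA without the block, the other being the unnamed transcript 2610300M13Rik. With the block its genotype part no longer passed (adjusted p 0.41).

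The other rises fell into those that followed the inhibitor and those that followed the genotype. Acpp, an acid phosphatase, was at 6.76, 4.55 and 5.03 FPKM in WT against 12.6, 15.5 and 11.3 with both changes (net 1.26 ± 0.18, adjusted p 0.01), and its inhibitor part was 0.999 against a genotype part of 0.26. S100a1, a calcium-binding protein, was at 6.88, 9.18 and 12.3 in WT against 25.5, 22.5 and 33.2 with both changes, again with the larger inhibitor part (0.98 against 0.55). In 7 of the 12 the inhibitor part lay between -0.24 (Fcrl6) and 0.11 (Bambi), and the genotype part made up the change. These were Fcgrt (net 1.64), which encodes the heavy chain of the neonatal Fc receptor, Bmerb1 (1.48), Bambi (1.44), a decoy receptor of the TGFβ family, Fcrl6 (1.30), an Fc receptor relative, Tyw3 (1.22), an enzyme of tRNA modification, Camk2b (1.18), a subunit of calcium/calmodulin kinase II, and Tgm2 (1.11), transglutaminase 2. Insl6, a relaxin relative, had parts of 0.62 and 0.51, and Tmem158 0.84 and 0.22. With the block Bambi and Fcrl6 were no longer called (adjusted p 0.068 and 0.053). Fcgrt, Bmerb1, Bambi, Fcrl6 and Tmem158 were not called without the 4 libraries, with net changes of 1.37, 1.26, 1.43, 1.21 and 0.97 and adjusted p of 0.11, 0.099, 0.066, 0.068 and 0.10.

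Some rises had 2 moderate parts of the same sign. Il24, a cytokine of the IL-10 family, was at 41.7, 45.9 and 40.2 FPKM with vehicle and 42.3, 58.5 and 45.1 with PI3Kdi in WT libraries, and 54.2, 57.2 and 55.9 with vehicle and 91.1, 87.2 and 80.1 with PI3Kdi in libraries lacking FOXO1. The libraries with both changes were above all 9 others, and the net change was 1.01 ± 0.12 (adjusted p 0.0032) from parts of 0.61 and 0.40. The inhibitor part had an adjusted p of 0.069 without the block and the genotype part one of 0.051 with it, so neither fit classed it as adding. Il10ra, a chain of the IL-10 receptor, was at 19.2, 17.5 and 18.4 FPKM in WT against 30.2, 31.7 and 36.4 with both changes (net 0.83 ± 0.13, adjusted p 0.017; parts 0.44 and 0.39). Fasl, the death ligand of CTL, was at 31.4, 30.2 and 34.5 in WT against 46.3, 51.4 and 58.9 with both changes (net 0.70 ± 0.13, adjusted p 0.039). Without the 4 libraries at the ends of the first component neither Il10ra (net 0.78, adjusted p 0.068) nor Fasl (0.60, 0.10) was called.

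**Figure D2:**
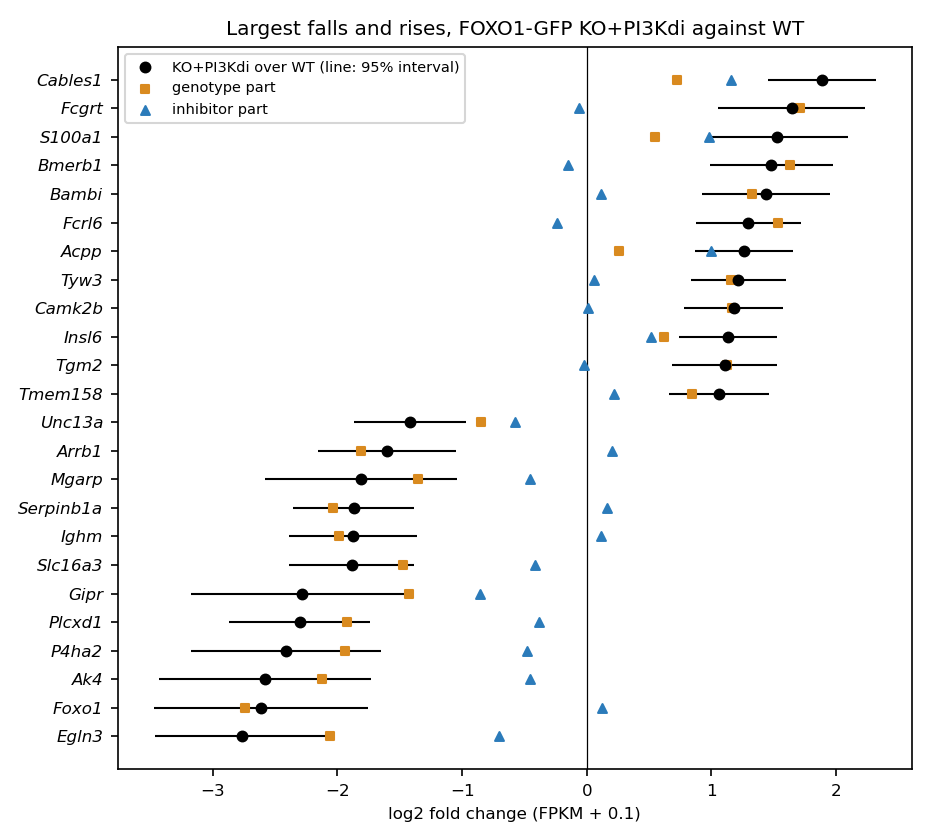
Net log2 fold change (black, line: 95% interval), genotype part (square) and inhibitor part (triangle) of the 12 largest rises and 12 largest falls named by the rule. Most squares lie near the black points, and triangles are the nearer ones for Cables1, S100a1 and Acpp.

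The largest falls held genes of the response to low oxygen. Egln3, a prolyl hydroxylase that marks HIF-1α for destruction and is itself induced by it, was at 37.6, 45.5 and 23.7 FPKM in WT against 6.6, 4.93 and 3.75 with both changes, 16.7, 30.4 and 15.8 with PI3Kdi alone and 10.0, 7.98 and 5.84 with the deletion alone. The net change was -2.77 ± 0.32 (6.81-fold lower, adjusted p 0.0032), and without the 4 libraries it was -2.51 (adjusted p 0.044). Ak4, a mitochondrial adenylate kinase, was at 3.65, 4.28 and 2.19 FPKM in WT against 0.67, 0.43 and 0.33 with both changes (net -2.58 ± 0.39, adjusted p 0.012). Slc16a3, the lactate exporter MCT4, was at 44.4, 53.5 and 37.7 in WT against 14.5, 13 and 9.17 with both changes (net -1.89 ± 0.23, adjusted p 0.0036), and P4ha1, a collagen prolyl 4-hydroxylase, at 29.1, 29.1 and 19.6 in WT against 11.4, 9.59 and 7.84 with both changes (net -1.42 ± 0.21). In all of these the groups did not overlap, as for the 10.4% of all genes that lay under WT. No overlap was a condition of the rule that named Egln3, Ak4 and Slc16a3 among the largest falls, so it adds nothing to their calls. Ak4 (net -2.31, adjusted p 0.089) and P4ha1 (-1.19, 0.063) were not called without the 4 libraries.

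Egln3, Ak4, Slc16a3 and P4ha1 were among the mRNA lower by both parts. With the replicate block 10 mRNA were adding and lower, and 11 were adding in all (0.0828% of the genes): Ak4, Bnip3, Cxcr3, Egln1, Egln3, P4ha1, Pfkl, Plcxd1, Slc16a3 and Tpi1, with Gm49980, a predicted gene, higher. All 10 were called in the net comparison. Their median genotype part was -1.08 and their median inhibitor part -0.27, and the genotype part was the larger in each. Where each part also had to exceed 1.5-fold, 1 of the 10 was left, Egln3. For Egln3 the parts were -2.06 (adjusted p 0.0038 with the block) and -0.71 (6.2e-04). Without the block no mRNA was adding and lower, since the inhibitor part of these 10 did not pass (adjusted p 0.27 for Egln3 and 0.42 for Slc16a3). Without the 4 libraries both parts kept a negative sign in all 10, and 6 were called in the net comparison (Cxcr3, Egln3, Pfkl, Plcxd1, Slc16a3 and Tpi1).

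Besides Egln3 and Slc16a3, the group held enzymes and mitochondrial proteins. Bnip3, a receptor for the removal of mitochondria, was at 131, 147 and 111 FPKM in WT against 62.8, 62.2 and 50.2 with both changes. Pfkl, a phosphofructokinase of glycolysis, was at 27.9, 27.1 and 21.9 in WT against 12.7, 11 and 8.31 with both changes, and Tpi1, triosephosphate isomerase, at 332, 374 and 307 in WT against 199, 199.8 and 157 with both changes. Cxcr3, the receptor for interferon-induced chemokines, was at 19.6, 19.6 and 20.6 FPKM with vehicle and 22, 20.1 and 20.1 with PI3Kdi in WT libraries, and 13.1, 13.9 and 15.7 with vehicle and 8.88, 10.2 and 10.6 with PI3Kdi in libraries lacking FOXO1. Its log2 change with PI3Kdi was 0.06 for WT and -0.52 for FOXO1-GFP KO, so the fall with PI3Kdi was seen in the FOXO1-GFP KO libraries. The difference of the 2 responses, -0.58, had an adjusted p of 0.021 with the block and 1 without it. For Egln3, in contrast, PI3Kdi gave -0.78 in WT and -0.63 in FOXO1-GFP KO.

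**Figure D3:**
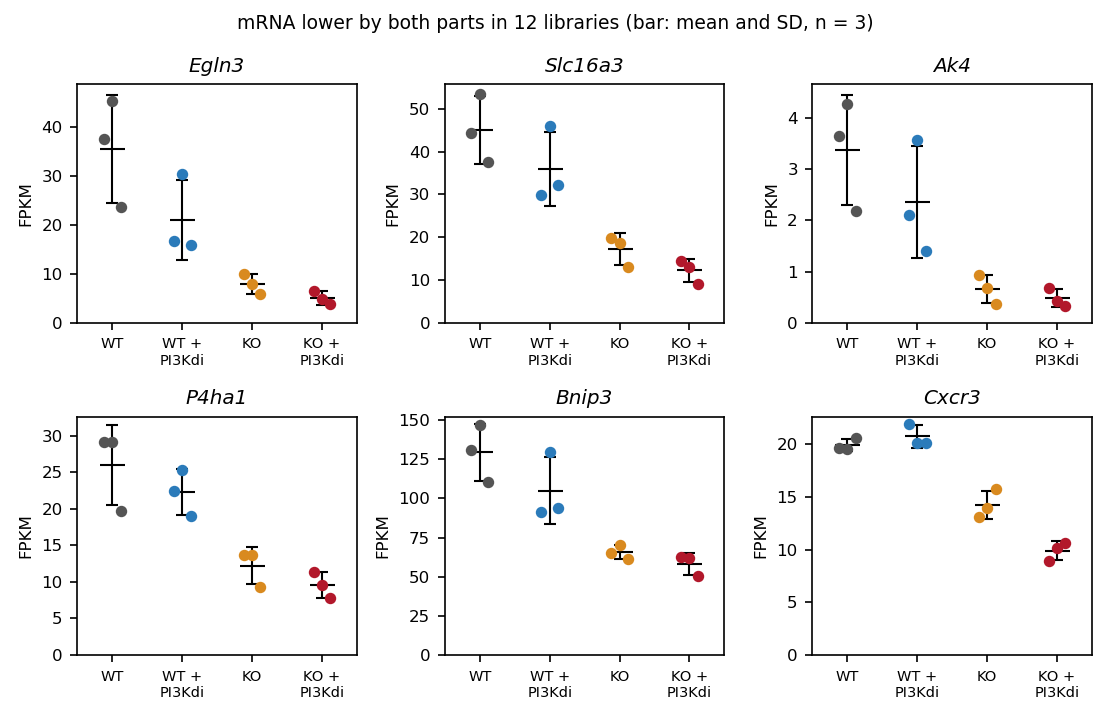
FPKM (y axis, from 0) of 6 mRNA that were lower by both parts with the replicate block, in each library of WT, WT+PI3Kdi, FOXO1-GFP KO (KO) and FOXO1-GFP KO+PI3Kdi, with the group mean and SD. FOXO1-GFP KO+PI3Kdi has the lowest mean in each panel, and in the panel of Cxcr3 the WT+PI3Kdi libraries overlap with those of WT.

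Among the other named falls P4ha2, a second collagen prolyl 4-hydroxylase, had a net change of -2.42 ± 0.35, Plcxd1 -2.30 ± 0.26, Gipr, the receptor for the gut hormone GIP, -2.29 ± 0.40, Mgarp, a mitochondrial protein, -1.81 ± 0.35, and Unc13a, which primes vesicles for release, -1.42 ± 0.21. Both parts were negative in each of these. With the block Gipr and Mgarp were not called (adjusted p 0.10 and 0.088), and without the 4 libraries P4ha2 (net -1.88, adjusted p 0.064), Mgarp (-1.64, 0.063) and Unc13a (-1.43, 0.055) were not. Other falls followed the genotype. Cxcr6, the receptor for CXCL16, was at 78.1, 48.9 and 66.9 FPKM in WT against 18.3, 33.9 and 24 with both changes (net -1.36 ± 0.27, adjusted p 0.04; inhibitor part 0.09). Serpinb1a, an inhibitor of proteases, was at 10.4, 10.4 and 6.89 in WT against 2.48, 2.57 and 2.19 with both changes (net -1.87 ± 0.22), and Arrb1, an arrestin, at 11.7, 8.54 and 5.29 in WT against 2.1, 3.12 and 2.66 with both changes (net -1.60 ± 0.25). With the block the adjusted p of Arrb1 was 0.066. Tigit, an inhibitory receptor, was at 31.3, 26.3 and 27.2 in WT against 17.7, 20.5 and 13 with both changes (net -0.75 ± 0.15, adjusted p 0.049, and 0.094 with the block). Cxcr6 (net -1.20, adjusted p 0.21), Arrb1 (-1.36, 0.074) and Tigit (-0.49, 0.090) were not called without the 4 libraries. Itga7, the integrin α7 chain, was at 1.45, 1.06 and 0.47 in WT against 0.03, 0.06 and 0.04 with both changes, and was called lower (adjusted p 0.0032), the second group lying under 0.1 FPKM. The neighbouring MHC class I genes H2-Q6 and H2-Q7 both fell (net -0.90 ± 0.13 and -0.87 ± 0.14), and reads may be split between these near-identical copies. Of the 16 genes of MHC class I and antigen loading, 13 had a positive net change, against 6099 of all 13283 genes. The median of the 16 was 0.20 (0.07 without the 4 libraries), and H2-Q6 and H2-Q7 were the 2 called.

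Ighm, the immunoglobulin μ chain, was at 8.06, 10.3 and 7.61 FPKM with vehicle and 11.1, 13 and 12.8 with PI3Kdi in WT libraries, and 2.35, 2.44 and 3.71 with vehicle and 1.64, 2.26 and 3.15 with PI3Kdi in libraries lacking FOXO1 (net -1.87 ± 0.23, adjusted p 0.0046). Igkc, the κ light chain, was at 0.3, 1.68 and 0.74 in WT and listed at 0 in all 3 libraries of FOXO1-GFP KO+PI3Kdi. Both are B cell genes. Of 13 B cell markers 7 were in the table, and these were the 2 called (with the block 1, Ighm). The summed level of the 7, Ighm and Igkc included, was 19.6 to 23.7 FPKM in WT and 8.82 to 11.2 in FOXO1-GFP KO+PI3Kdi. The net change was negative in 5 of the 7 and positive in 2. Cd79a, Ms4a1, Pax5 and Cd22 were not among the genes of the table. The part of other cells in these 2 values was not tested. None of the markers of myeloid cells (6 of 12 in the table), CD4 T cells (3 of 4), NK cells (3 of 6) or erythroid and stromal cells (1 of 7) was called.

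Offsetting was the commoner of the 2 patterns. Without the block 27 mRNA (0.203% of the genes) were offsetting, 25 of them with the inhibitor part higher and the genotype part lower and 2 the reverse, against 2 that were adding (0.0151%). With the block 47 were offsetting (0.354%), 40 and 7 by direction, and 15 were offsetting in both fits. In the 25 mRNA the median genotype part was -0.87 and the median inhibitor part 0.85, and the median net change was -0.045. Their net change was negative in 16 and positive in 9, and 1 of them, Slamf6, was called. A 95% interval of the net change that lay within 1.5-fold of WT was found for 14 of the 27 and for 44.1% of all genes, and with the block for 13 of the 47 and 42.9% of all genes. In the 40 mRNA with the block the genotype part was the larger in 38, the median net change was -0.48 and 38 had a negative net change. The 2 fits thus classed different sets of mRNA, with a different balance in each set, although the estimates for any 1 mRNA were the same.

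The offsetting mRNA included Tcf7, which encodes the transcription factor TCF1 of naive and memory T cells. It was at 4.71, 2.08 and 3.56 FPKM with vehicle and 14.9, 6.74 and 9.44 with PI3Kdi in WT libraries, and 1.13, 0.9 and 0.88 with vehicle and 2.04, 2.87 and 2.35 with PI3Kdi in libraries lacking FOXO1. Every PI3Kdi library was above every vehicle library of its genotype, and the libraries with both changes overlapped with those of WT. The genotype part was -1.83 ± 0.22 (adjusted p 9.3e-04), the inhibitor part 1.39 ± 0.22 (0.021) and the net change -0.43 ± 0.31 (0.60), with a 95% interval of -1.12 to 0.26. That interval reaches beyond 1.5-fold lower, so the data do not show that Tcf7 was back at the WT level.

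S1pr1, the receptor by which T cells leave lymphoid tissue, was at 1.95, 1.57 and 2.17 FPKM with vehicle and 6.96, 4.4 and 5.79 with PI3Kdi in WT libraries, and 0.82, 1.33 and 1.45 with vehicle and 1.63, 3.46 and 2.29 with PI3Kdi in libraries lacking FOXO1. Its parts were -0.93 and 1.24, and the net change was 0.31 ± 0.29, with an interval of -0.32 to 0.93. With the block its genotype part had an adjusted p of 0.25, so it was offsetting in the fit without the block alone. Id3, an inhibitor of E proteins that is linked to memory, was at 4.47, 4.77 and 6.58 FPKM in WT against 5.07, 4.24 and 4.37 with both changes, 6.68, 7.77 and 8.12 with PI3Kdi alone and 3.22, 2.33 and 2.43 with the deletion alone. Its net change was -0.19 ± 0.17 and its interval, -0.57 to 0.19, lay inside 1.5-fold.

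Single members of other lists were also offsetting, 1 of 23 genes of PI3K, AKT and mTOR feedback (Pik3r5) and 1 of 17 of cell survival and quiescence (Pdcd4). Over all genes the share was 0.203% without the block and 0.354% with it, and a single member says little about its list. Pik3r5, a regulatory subunit of PI3Kγ, was at 13.7, 12.3 and 10.4 FPKM with vehicle and 26.1, 23.2 and 26.5 with PI3Kdi in WT libraries, and 8.03, 7.21 and 7.58 with vehicle and 12, 11.4 and 10.6 with PI3Kdi in libraries lacking FOXO1. The net change was -0.09 ± 0.11 (interval -0.34 to 0.16, inside 1.5-fold), the parts being -0.90 and 0.81, both past the test in both fits. Pdcd4, an inhibitor of translation, was at 14.6, 10.8 and 12.9 FPKM in WT against 15.4, 15.7 and 17.4 with both changes, and here the inhibitor part (0.94) was larger than the genotype part (-0.59). All 3 libraries with both changes were above those of WT, with a net change of 0.35 ± 0.12 an interval of 0.09 to 0.61 and an adjusted p of 0.25. Samhd1, which breaks down nucleotides, had the parts -0.47 and 0.49 and a net change of 0.01 ± 0.13, and Gbp2, a GTPase induced by interferon-γ, -0.65, 0.74 and 0.09 ± 0.20. For both the genotype part did not pass with the block. Prnp, the prion protein, was at 17.7, 18 and 18.9 FPKM with vehicle and 40.9, 38.8 and 48 with PI3Kdi in WT libraries, and 13.5, 14.8 and 13.9 with vehicle and 24.3, 29.3 and 27.5 with PI3Kdi in libraries lacking FOXO1. Its net change of 0.56 ± 0.10 had an adjusted p of 0.033 but stayed under 1.5-fold. Among the other offsetting mRNA, Prss12, a serine protease (-0.30 ± 0.22), Lypd6b (-0.33 ± 0.18), Sh3bp5 (-0.02 ± 0.15), Card6 (-0.02 ± 0.15) and Emb, embigin (-0.05 ± 0.10), had net changes that were not called.

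**Figure D4:**
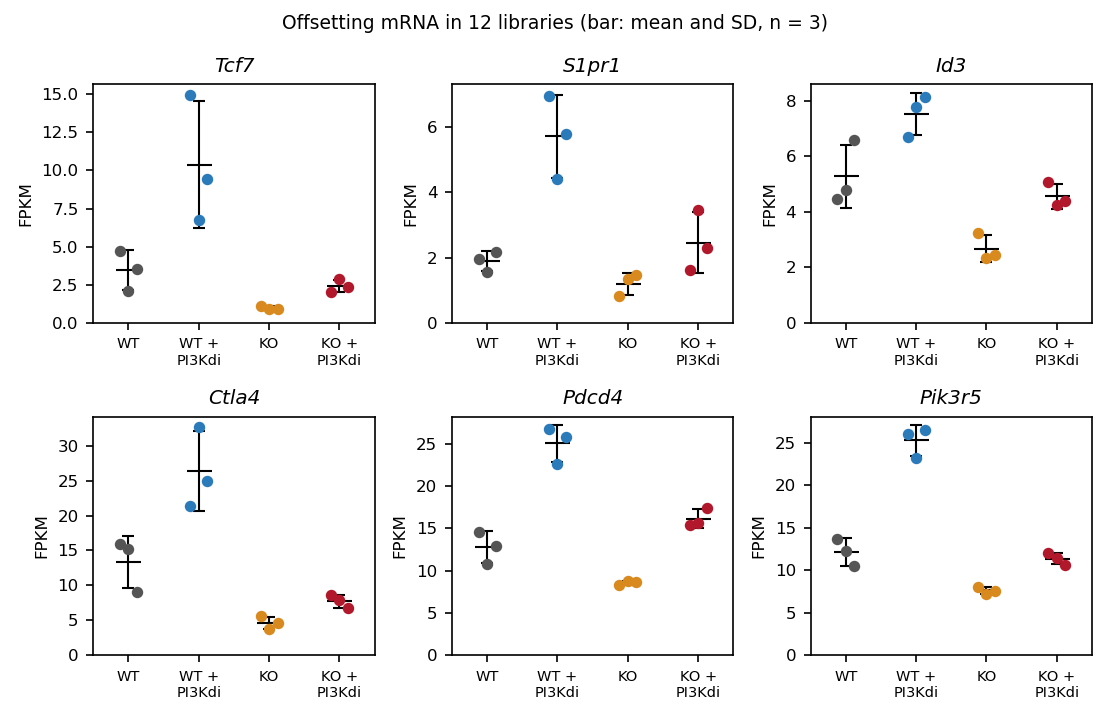
FPKM (y axis, from 0) of 6 offsetting mRNA in each library of the 4 groups, with the group mean and SD. In each panel WT+PI3Kdi is highest and FOXO1-GFP KO lowest, and FOXO1-GFP KO+PI3Kdi lies between them, under WT for Ctla4 and above it for Pdcd4.

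The inhibitory receptors Ctla4 and Slamf6 were among the mRNA in which the genotype part was larger. The list of 12 inhibitory receptors was mixed, with median parts of -0.14 and 0.12 and a positive genotype part in 5. Its largest rise was Cd160 (net 1.09), called with the block only. Ctla4, a receptor that competes with CD28 for its ligands, was at 15.9, 15.2 and 9.05 FPKM with vehicle and 21.4, 32.7 and 25 with PI3Kdi in WT libraries, and 5.53, 3.76 and 4.6 with vehicle and 8.63, 7.83 and 6.76 with PI3Kdi in libraries lacking FOXO1. The 3 libraries with both changes were under those of WT, but the net change of -0.74 ± 0.23 had an adjusted p of 0.20. Slamf6, a receptor of the SLAM family, was at 0.33, 0.22 and 0.21 FPKM with vehicle and 1.13, 1.13 and 0.88 with PI3Kdi in WT libraries, and 0.04, 0.03 and 0.01 with vehicle and 0.07, 0.05 and 0.04 with PI3Kdi in libraries lacking FOXO1. It was offsetting in both fits and called lower in the net comparison (-1.19 ± 0.19, adjusted p 0.014), its FOXO1-GFP KO values lying under 0.1 FPKM. Its net change without the 4 libraries was -0.98, with an adjusted p of 0.088. The median net change of the 12 inhibitory receptors was -0.24, and 0.11 without the 4 libraries, where none of them was called. For Slamf6 alone PI3Kdi gave 1.71 in WT and 0.28 in FOXO1-GFP KO, while the medians of the 12 receptors were 0.14 and 0.20. Tnfrsf23 and Tnfrsf26, neighbouring decoy receptors of the TNF family on chromosome 7, were also offsetting (net -1.29 ± 0.28 and -0.16 ± 0.12), and reads may be split between these similar genes.

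The reverse direction, inhibitor part lower and genotype part higher, was found for Spp1 and Anxa3 without the block. Spp1, the secreted protein osteopontin, was at 512, 666 and 685 FPKM with vehicle and 278, 349 and 336 with PI3Kdi in WT libraries, and 863, 930.0 and 935 with vehicle and 542, 541 and 484 with PI3Kdi in libraries lacking FOXO1. Its parts were 0.63 and -0.87, and its net change -0.24 ± 0.14 with an interval of -0.55 to 0.07, inside 1.5-fold. With the block the genotype part had an adjusted p of 0.054. Anxa3, an annexin, had parts of 1.004 and -0.80 and was offsetting in both fits. Among those that the block added were Cd6, Ccn3, Rabggtb, Galnt10 and Acadm, with net changes from 0.29 (Ccn3) to 0.94 (Rabggtb).

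The gene lists were chosen with earlier results of these data known, so their counts describe net changes and are not independent evidence. Of 19 hypoxia-inducible mRNA 7 were called lower (Ak4, Bnip3, Egln1, Egln3, P4ha1, P4ha2 and Pdk1), against 0.474% of all genes, and the median net change was -0.66, with a genotype part of -0.58 and an inhibitor part of -0.20. The medians of all genes were -0.03, -0.0003 and -0.03. The 2 largest changes that were not called were Ero1l, an oxidase of the endoplasmic reticulum (-1.54 ± 0.40, adjusted p 0.12), and Ndrg1 (-0.85 ± 0.18, 0.063). Without the 4 libraries the median of the list was -0.62 and 2 members were called, of the 7 named only Egln3. Of 19 mRNA of glycolysis 3 were called lower (Pfkl, Slc16a3 and Tpi1). Of the 19, 18 had a negative net change, against 7182 of all 13283 genes, and the median was -0.47. Slc2a3, a glucose transporter, had a net change of -1.70 ± 0.39 (adjusted p 0.08, and 0.039 with the block), and Pgam1, phosphoglycerate mutase, one of -0.94 ± 0.21 (0.073 and 0.048), so that 5 members were called with the block.

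Cholesterol synthesis had the lowest median of the lists with at least 5 members in the table. All 24 members had a negative net change, against 7182 of all 13283 genes, with a median of -0.84 from parts of -0.48 and -0.36. Called lower were 6 members (10 with the block), against 0.474% of all genes (0.489% with the block). Without the 4 libraries 5 were called, of the 6 all but Acat2 (adjusted p 0.063) and Sc5d (0.056), and the medians were -0.60 for the net change and -0.25 for the genotype part. Cyp51, lanosterol demethylase, was at 67.9, 67.2 and 59.9 FPKM with vehicle and 48.9, 46.7 and 41.3 with PI3Kdi in WT libraries, and 46.1, 49.1 and 34.6 with vehicle and 40.0, 36.6 and 23.4 with PI3Kdi in libraries lacking FOXO1 (net -0.99 ± 0.19, adjusted p 0.039). Pmvk, phosphomevalonate kinase, had mainly an inhibitor part (-0.50 against -0.20) and Acat2, an acetyl-CoA acetyltransferase, mainly a genotype part (-0.92 against 0.08). Msmo1, Sc5d and Fdft1, enzymes of the sterol branch, were the other 3 (net -1.10 ± 0.22, -0.89 ± 0.16 and -0.72 ± 0.14). Insig1, which holds back the activation of sterol genes, had a net change of -1.66 ± 0.39 (adjusted p 0.083, and 0.031 with the block). No member was adding or offsetting in either fit.

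The list of FOXO1 targets and homing genes had parts of opposite sign. Its median genotype part was -0.71 and its median inhibitor part 1.01, and none of its 6 members was called in the net comparison. Besides Tcf7 and S1pr1, Klf2, a factor of quiescence and homing, had parts of -1.26 and 0.96, Il7r, a chain of the IL-7 receptor, -0.49 and 1.06, and Ccr7, a lymph node homing receptor, -0.04 and 0.53. The net changes of these 5 ranged from -0.43 (Tcf7) to 0.57 (Il7r). The list was drawn up with results of these data known, and its direction is not independent evidence. Klf2 passed for the genotype part without the block (adjusted p 0.012) and not with it (0.24). Memory and stemness transcription factors behaved less uniformly, with median parts of -0.25 and 0.29 over 12 members and a net median of -0.05. Without the 4 libraries the net median was 0.16, with 9 of the 12 positive in place of 5, and the genotype part -0.06.

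The lists of effector function held a small number of called mRNA. Of 15 cytolytic effector molecules Fasl alone was called, higher, against 0.331% of all genes, and the net median was 0.42 (0.24 without the 4 libraries, where Fasl was not called and 2 other members were). Gzmd and Gzmf had net changes of 0.99 ± 0.29 and 1.03 ± 0.33 that were not called (adjusted p 0.18 and 0.22). Of 12 cytokines Fasl and Il24 were called higher, and none of 12 effector transcription factors, 12 costimulatory receptors, 6 chemokines, 9 NK lectin receptors, 28 cell cycle genes or 23 genes of PI3K, AKT and mTOR feedback was called in the net comparison without the block. With the block Klrk1, the activating receptor NKG2D, was called higher (net 0.73 ± 0.15, adjusted p 0.031, against 0.053 without it). So was Cd160, of the list of inhibitory receptors (1.09 ± 0.26, 0.032 against 0.085). Of 30 interferon-stimulated genes Usp18, a brake on interferon signalling, was called higher (net 0.94 ± 0.13), but not without the 4 libraries (0.97, adjusted p 0.055). Of 23 immediate early genes Spry1, an inhibitor of receptor kinase signalling, was called lower (net -1.38 ± 0.17), at 0.06, 0.05 and 0.06 FPKM in FOXO1-GFP KO+PI3Kdi against 0.36, 0.31 and 0.26 in WT.

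**Figure D5:**
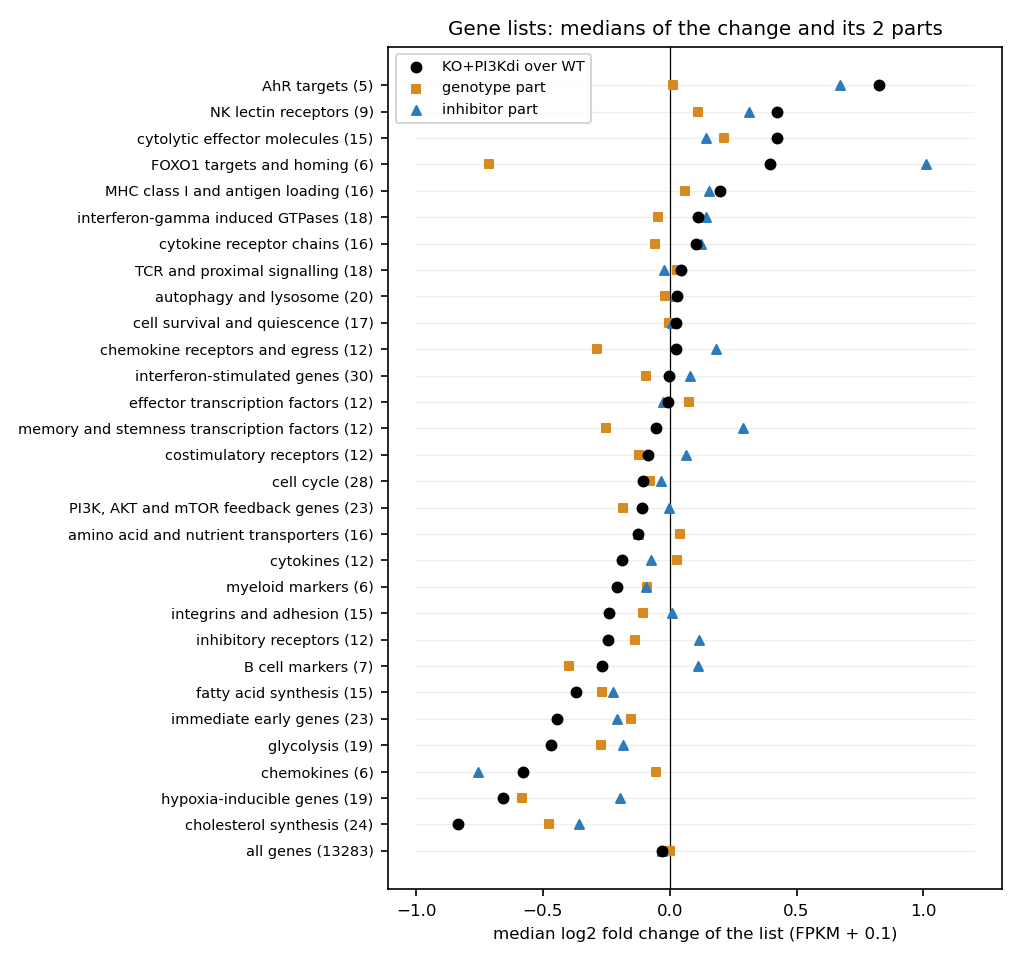
Median log2 net change (circle), genotype part (square) and inhibitor part (triangle) of gene lists with at least 5 members in the table (number in brackets) and of all genes. Cholesterol synthesis and hypoxia-inducible genes have squares and triangles on the left, and FOXO1 targets and homing has its square and triangle on opposite sides of 0.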

How the data were processed

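RNA of sorted CTL (300 ng per library) was sequenced as stranded mRNA libraries with reads of 75 bp. Per the study's methods and labels, the authors aligned reads to GRCm38.p6 with STAR 2.7.1a, counted them per gene on Ensembl 98, removed low genes with edgeR filterByExpr, scaled by TMM and divided by exon length. The deposited values are FPKM rounded to 2 decimals, with 0 other columns of values. Depth was estimated from the FPKM steps that single reads leave in low genes, using GENCODE M21 exon lengths (13276 genes matched).

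Log2(FPKM + 0.1) of the 12 libraries was fitted with 4 group means in limma 3.58.1 (R 4.3.3), with a mean-variance trend, and tested on simulated data. The design had no replicate block in its primary fit. Deviations from the group means correlated at 0.594 to 0.838 between libraries of the same number within a genotype. Across genotypes they correlated at -0.28 to 0.64 between WT and FOXO1-GFP KO+PI3Kdi. They did so at -0.41 to 0.73 between WT and FOXO1-GFP KO, and at -0.32 to 0.51 between the PI3Kdi groups. Each of these ranges ran from replicate 2 to replicate 3. The numbers thus paired libraries at every replicate within a genotype, but not across genotypes. A random block of genotype by number (correlation 0.757) was the alternative. Other alternatives were quantile normalization, other pseudocounts, a minimum of 1 FPKM, voom on estimated reads and leaving out libraries.

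Named genes were Foxo1; up to 12 called rises and 12 falls with a mean of at least 1 FPKM, no overlap and no predicted model; up to 6 per class; and called members of the gene lists with the 2 largest others. Car9, Ankrd37, Klf2, Klrk1, Fads2, Prnp, Emb, Sh3bp5, Card6, Acadm, Cd38, Tbc1d4, Fkbp1a and the ACGTG motif were picked after their values were seen. The comparison, genes and lists were chosen with earlier results of these data known. Promoters came from RefSeq. Libraries of a group differed by 5.4 to 37 times the counting noise. All 13283 genes passed the authors' filter; no further filter was applied. Some genes that the rule names are not reported here.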

Additional observations from a re-analysis of the deposited data

Results flagged for a closer look

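For 3 mRNA the response to PI3Kdi differed between FOXO1-GFP KO and WT with the replicate block (limma, Benjamini-Hochberg adjusted p under 0.05, and a difference over 1.5-fold). The adjusted p alone was passed by 5, the others being Cxcr3 and Fkbp1a. Cd38, an enzyme that consumes NAD, was at 2.03, 1.92 and 2.07 FPKM with vehicle and 0.97, 1.05 and 1.22 with PI3Kdi in WT libraries, and 2.01, 2.03 and 1.98 with vehicle and 2.82, 2.78 and 2.53 with PI3Kdi in libraries lacking FOXO1. Its response was 1.26 (log2) higher in FOXO1-GFP KO (exact value 1.255, adjusted p 0.0011), and its net change was 0.41 ± 0.13. Slamf6 responded less in FOXO1-GFP KO (difference -1.428, adjusted p 0.0081), as did Tbc1d4, a regulator of glucose transporter traffic (-1.474, adjusted p 0.027), which was at 0.41, 0.21 and 0.26 FPKM with vehicle and 1.52, 0.63 and 1.07 with PI3Kdi in WT libraries, and 0.09, 0.14 and 0.07 with vehicle and 0.1, 0.12 and 0.1 with PI3Kdi in libraries lacking FOXO1. Most FOXO1-GFP KO values of both lay near or under 0.1 FPKM. Without the block no mRNA passed (0 of 13283, with 200 at an unadjusted p under 0.05), and the adjusted p of Cd38 was 0.29.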

How the results depend on the processing

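The replicate block within genotype gave 104 net calls, 89 for the genotype part and 282 for the inhibitor part, 11 adding and 47 offsetting mRNA, against 107, 335, 62, 2 and 27 without it. A block shared by all groups, which the numbers do not warrant, gave 514 net calls, 179 for the inhibitor part, 56 adding and 119 offsetting mRNA. Voom on estimated reads with the block gave 105, 429, 12 and 61 for the genotype part, the inhibitor part, adding and offsetting mRNA. The 6 libraries alone gave 32 net calls, and 278 with a block of replicate number shared by WT and FOXO1-GFP KO+PI3Kdi. That block pairs libraries across genotypes, which the numbers likewise do not warrant. Where each part also had to exceed 1.5-fold, 1 adding and 23 offsetting mRNA were left with the block within genotype, and 2 and 21 without it. A pseudocount of 1 gave 145 and 31 calls for the parts. A mean of at least 1 FPKM, which tests fewer genes, gave 71 net calls, 192 and 36 for the parts, 1 adding and 16 offsetting. Chosen after seeing the data, leaving out 4 libraries at the ends of the first component gave 69 net calls, 5 adding and 62 offsetting, and with the block 203 and 246 for the parts, 19 adding and 123 offsetting. Leaving out each library in turn gave 29 to 114 net calls, 240 to 306 for the genotype part, 22 to 59 for the inhibitor part, 2 to 3 adding and 11 to 23 offsetting mRNA. Net calls fell to 42 without WT 1, 29 without WT 2, and 66, 48 and 36 without FOXO1-GFP KO+PI3Kdi 1, 2 and 3 (numbers are replicates). Calls for the inhibitor part fell to between 22 and 37 without WT 2 or 3, WT+PI3Kdi 2 or 3, FOXO1-GFP KO 1 or 2, or FOXO1-GFP KO+PI3Kdi 2 or 3, and offsetting mRNA to between 11 and 15 without WT 2 or 3, WT+PI3Kdi 3, FOXO1-GFP KO 1 or 2, or any FOXO1-GFP KO+PI3Kdi library. The cause was not tested. No named called mRNA changed direction under any of these, and 14 of 50 kept their call in every leave-one-out fit and 11 of 50 under every other alternative.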

Other observations

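Some lists outside the main groups had shifted medians with no member called without the replicate block. The 5 AhR targets in the table had a median net change of 0.82 (log2), all positive, with a median inhibitor part of 0.67 and genotype part of 0.01. Ahrr, the repressor of the aryl hydrocarbon receptor, had a net change of 1.11 ± 0.32 (limma, adjusted p 0.16). The 6 chemokines had a median net change of -0.58 and an inhibitor part of -0.76, with Ccl4 at -1.005 ± 0.32 (adjusted p 0.21). Of 15 fatty acid synthesis genes 14 had a negative net change (median -0.37), against 11 with a median of -0.17 without the 4 libraries at the ends of the first component. Over all 13283 genes the net change was negative in 7182 and positive in 6099, and without these 4 libraries it was negative in 7208. Fads2, a desaturase, was called with the replicate block (adjusted p 0.031, against 0.075 without it).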
